A study of Mus musculus with 180 samples.

Results

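Glycolysis and pentose phosphate genes were taken as a hand-written list of 36 genes and followed through single cells of 4 mouse haematopoietic populations. The list holds the glucose and lactate transporters, the enzymes that carry glucose to pyruvate and lactate, the genes that gate the entry of pyruvate into mitochondria, and the enzymes of the pentose phosphate pathway. Of the 36 genes, 35 were in the deposited table of 14825 genes, since Pkm2 has no row beside Pkm. Levels are TPM (transcripts scaled to a fixed total per cell, so comparable between genes), and a gene is called detected in a cell where its TPM is 1 or more. A filter for detection in 10% or more of the cells of some population kept 10856 genes and 34 of the members, and the lactate exporter gene Slc16a3 did not pass.

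Glycolysis splits glucose into pyruvate and yields ATP without oxygen, and lactate dehydrogenase turns pyruvate into lactate. The pentose phosphate pathway branches from the first glycolytic intermediate, where its oxidative steps give NADPH and its non-oxidative steps exchange ribose phosphates with glycolytic sugars. Haematopoietic stem cells in adult bone marrow are known for their reliance on glycolysis, with pyruvate dehydrogenase kinases holding pyruvate back from mitochondria.

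The study asked what expression of Hoxb5, a homeobox gene, makes of multipotent progenitors (MPP). The CD11b+CD48+SK cells, 47 cells, were donor-derived Sca1+c-kit+ cells sorted from primary recipients at Week 8 post-transplantation. Their donor MPP came from Mx1cre/Rosa LSL-Hoxb5-EGFP/+ mice, in which pIpC induces Cre from the interferon-responsive Mx1 promoter. The recipients were lethally irradiated and injected with pIpC, which the paper describes for no other sequenced population. The cells were gated as CD48+ and CD11b+, while the paper's MPP gate takes cells negative for both. The 41 WT-MPP cells and 36 BM HSC came from Rosa LSL-Hoxb5-EGFP/+ mice aged 8 weeks without Cre, and the 56 FL HSC came from embryos of the same genotype (Day14.5). All strains were C57BL/6, and the FL HSC were gated on CD11b and CD150. The tissue label of the FL HSC reads bone marrow, while the sorting protocol names fetal liver, which was followed here. Hoxb5, Cre, pIpC, irradiated hosts, transplantation and the sort gate cannot be told apart, since they differ together between the CD11b+CD48+SK cells and the other populations.

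The labels tie no cell to an animal. Each population is therefore a single sample, and no test between populations was possible. A difference, written as 1 population minus another, is that in mean log2(TPM+1) over cells, and a size of 1 or more is called past the fold. The SD given beside a mean TPM is over cells and holds no spread between animals. The depth per cell is unknown from TPM, and the median number of detected genes was 4514, 3844, 4441.5 and 5206.5 in the order CD11b+CD48+SK, WT-MPP, BM HSC, FL HSC, and runs of 4 values keep that order throughout. The median number of members detected per cell was 22, 21, 23.5 and 25 in the same order. Hoxb5, the induced gene, was detected in 43 of 47 CD11b+CD48+SK cells, 7 of 41 WT-MPP cells, 8 of 36 BM HSC and 32 of 56 FL HSC, with a mean TPM of 69.8 ± 51.5, 12.4 ± 35.6, 16.1 ± 42.97 and 21.7 ± 27.6 (SD over cells), so the labelled induced cells had the highest level. Cd48 was detected in all 47 CD11b+CD48+SK cells, Ly6a, which encodes Sca1, in 43, Kit in 33, and Itgam, which encodes CD11b, in 17. In the FL HSC, Itgam was detected in 9 of 56 cells and Slamf1, which encodes CD150, in 31.

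Markers of other cells moved with some populations. Of 12 erythroid markers 7 were in the table. Their summed level had a median of 3309 TPM in FL HSC, with a range from 127 to 16355 TPM. In BM HSC that sum ranged from 0 to 3442 TPM with a median of 42.1 TPM, and the medians were 0 in the other populations, with highest values of 1782 TPM in CD11b+CD48+SK cells and 2699 TPM in WT-MPP. Epor, the erythropoietin receptor gene, was at 0 in all CD11b+CD48+SK cells. In FL HSC the mean log2 levels of Hbb-b1, Hbb-b2 and Beta-s were 9.36, 9.82 and 9.26. Those of Hba-a1, Hba-a2, Klf1 and Epor were 0.12, 0.85, 0.17 and 2.73 there, so the erythroid list did not move as a whole. Of 6 mast or basophil markers 4 were in the table, and 43 of 47 CD11b+CD48+SK cells had some, with a summed median of 144 TPM and a range from 0 to 9249 TPM. That sum had a median of 0 in each other population, with highest values between 105 and 304 TPM. Ms4a2, the gene of the IgE receptor's beta chain, was at 0 in all WT-MPP and BM HSC cells, and Mcpt8 was at 0 in all WT-MPP and FL HSC cells. Myeloid markers, 10 of 12 in the table, had summed medians of 2040, 1483, 1252 and 1702 TPM, with ranges of 559 to 8329, 19.99 to 4568, 499 to 3916 and 230 to 4653 TPM. Within that list Mpo and Ctsg, granule protein genes named here after their values were seen, were detected in 43 and 39 of 47 CD11b+CD48+SK cells, with mean log2 levels of 6.22, 0.73, 0.48 and 1.34 for Mpo and 5.21, 0, 0.04 and 0 for Ctsg. Camp, Csf1r and Elane, of the same list, were at 0 in all CD11b+CD48+SK cells. Prtn3, also of that list, was lowest in CD11b+CD48+SK cells, with mean log2 levels of 6.67, 7.92, 7.43 and 8.56. Lyz2 had levels of 9.98, 9.04, 9.89 and 10.09, so the list did not move as a whole. For 22 cell cycle genes the summed medians were 1911, 533, 819 and 1579 TPM, with ranges of 127 to 7544, 10.7 to 7854, 10.9 to 6035 and 487 to 11805 TPM. Megakaryocyte markers, 6 of 7 in the table, had summed medians of 1.03, 2.57, 210 and 172 TPM with highest values of 390, 1003, 1249 and 1833 TPM. B cell markers, 5 of 9 in the table, had summed medians of 105, 5.90, 193 and 209 TPM with highest values of 529, 974, 1085 and 968 TPM, and 5 of 8 T cell markers had a highest summed median of 0.45 TPM, in CD11b+CD48+SK cells. The part of these genes and cells in the results below was not tested.

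The promoters below are those of the lactate dehydrogenase pair, whose members took different orders across the populations, of Pgk1, a glycolytic kinase gene, and of Taldo1, the transaldolase gene. Each is the 250 bases before the RefSeq start in GRCm38.p6, written 5′ to 3′ on the gene's strand. Capitals mark ACGTG or GCGTG on either strand, the core that hypoxia-inducible factors bind, and 5-letter matches that overlap run together. The E-box CACGTG, which Myc and USF proteins bind, holds ACGTG on both strands. Ldha lies at chr7:46845554-46845803 (+), within an intron of a longer annotated transcript of the gene. Ldhb lies at chr6:142507958-142508207 (-), Pgk1 at chrX:106186850-106187099 (+) and Taldo1 at chr7:141391910-141392159 (+).
Ldha: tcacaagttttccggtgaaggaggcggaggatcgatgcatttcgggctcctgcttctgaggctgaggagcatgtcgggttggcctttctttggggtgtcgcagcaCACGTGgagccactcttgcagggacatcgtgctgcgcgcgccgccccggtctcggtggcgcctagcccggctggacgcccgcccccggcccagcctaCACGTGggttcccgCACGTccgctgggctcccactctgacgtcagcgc
Ldhb: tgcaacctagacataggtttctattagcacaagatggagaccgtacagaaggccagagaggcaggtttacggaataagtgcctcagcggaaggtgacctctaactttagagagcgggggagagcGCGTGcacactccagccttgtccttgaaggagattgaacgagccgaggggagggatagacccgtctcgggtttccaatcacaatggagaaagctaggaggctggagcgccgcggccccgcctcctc
Pgk1: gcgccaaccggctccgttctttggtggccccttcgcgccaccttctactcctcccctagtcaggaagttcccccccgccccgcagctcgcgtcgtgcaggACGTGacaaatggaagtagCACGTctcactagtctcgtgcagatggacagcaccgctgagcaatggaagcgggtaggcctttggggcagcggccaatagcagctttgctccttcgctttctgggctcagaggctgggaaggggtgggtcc
Taldo1: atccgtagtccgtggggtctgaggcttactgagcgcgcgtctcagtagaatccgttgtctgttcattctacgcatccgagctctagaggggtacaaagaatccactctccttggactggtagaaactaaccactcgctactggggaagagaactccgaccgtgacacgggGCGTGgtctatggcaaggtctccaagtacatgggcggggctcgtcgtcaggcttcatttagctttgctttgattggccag
The Ldha promoter shown held 3 marked places, 2 of them E-boxes, and that of a second RefSeq start, at chr7:46846832-46847081 (+), held 1 and no E-box, while those of Ldhb and Taldo1 held 1 each and that of Pgk1 held 2. RefSeq promoters were found for 34 of the 36 listed genes, in all but Slc2a3 and Pkm2, and some genes had several starts. ACGTG or GCGTG was in 37 of their 49 promoters (75.5%) and in 38.6% of all 32851 RefSeq promoters, each cut to the same length. The E-box was in 5 of the 49 (10.2%) and in 6.02% of all. The median GC content was 60.4% in the members' promoters and 52.4% in all promoters, and a match is a description of letters, not of binding.

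Ldhb was the member whose level in CD11b+CD48+SK cells lay farthest from the other populations. It encodes the H subunit of lactate dehydrogenase, which favours the oxidation of lactate to pyruvate, and lies at chr6:142490249-142507957 on the minus strand (GRCm38, GENCODE M21). In CD11b+CD48+SK cells Ldhb ranged from 0 to 493 TPM with a median of 0.85 TPM. It ranged from 0 to 2844 TPM with a median of 581 TPM in WT-MPP, from 3.87 to 1486 TPM with a median of 265 TPM in BM HSC, and from 1.19 to 1255 TPM with a median of 453 TPM in FL HSC. Most CD11b+CD48+SK cells were thus below nearly all other cells, although their ranges overlapped. The mean was 84.0 ± 130 TPM (SD over 47 cells) in CD11b+CD48+SK cells, against 588 ± 496, 437 ± 398 and 522 ± 319 TPM in the WT-MPP, BM HSC and FL HSC populations. Ldhb was detected in 22 of 47 CD11b+CD48+SK cells (46.8%, with an exact Clopper-Pearson interval at 95% of 32.1 to 61.9%, which covers counting error only). It was detected in 40 of 41 WT-MPP cells, in all 36 BM HSC and in all 56 FL HSC.

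On the log2 scale the difference for Ldhb was -5.17 from WT-MPP and -5.41 from FL HSC. Only 6 of the 10856 kept genes had a lower difference from WT-MPP, and 26 had a lower one from FL HSC. The calculation was repeated in 5 other ways: with a pseudocount of 0.1, with one of 10, as log2 of mean TPM, after scaling each cell by a median ratio, and among cells with a like number of detected genes. Under these alternatives the differences for Ldhb lay between -6.73 and -2.79 from WT-MPP and between -7.05 and -2.62 from FL HSC. Within CD11b+CD48+SK cells, Ldhb had a Spearman rho over cells of 0.09 with the number of genes detected and -0.06 with the cell cycle score. The cells are tied to no animal, so these values have no p.

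Ldha, the M subunit that favours the making of lactate, did not share that order. Its range was 245 to 2955 TPM with a median of 1422 TPM in CD11b+CD48+SK cells, and 4.31 to 2233 TPM with a median of 693 TPM in WT-MPP. In BM HSC it ranged from 7.03 to 3089 TPM with a median of 1535 TPM, and in FL HSC from 496 to 4344 TPM with a median of 1858 TPM. The ranges overlapped in all populations, and WT-MPP had the lowest median. The difference for Ldha was 1.80 for CD11b+CD48+SK minus WT-MPP, and it was 0.61 among cells with a like number of detected genes. Ldhb made up 5.32, 42.1, 22.98 and 20.7% of the mean TPM of the pair in CD11b+CD48+SK, WT-MPP, BM HSC and FL HSC. Ldha was the higher of the pair in all 47 CD11b+CD48+SK cells, in 27 of 41 WT-MPP cells, in 32 of 36 BM HSC and in 55 of 56 FL HSC.

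**Figure D1:**
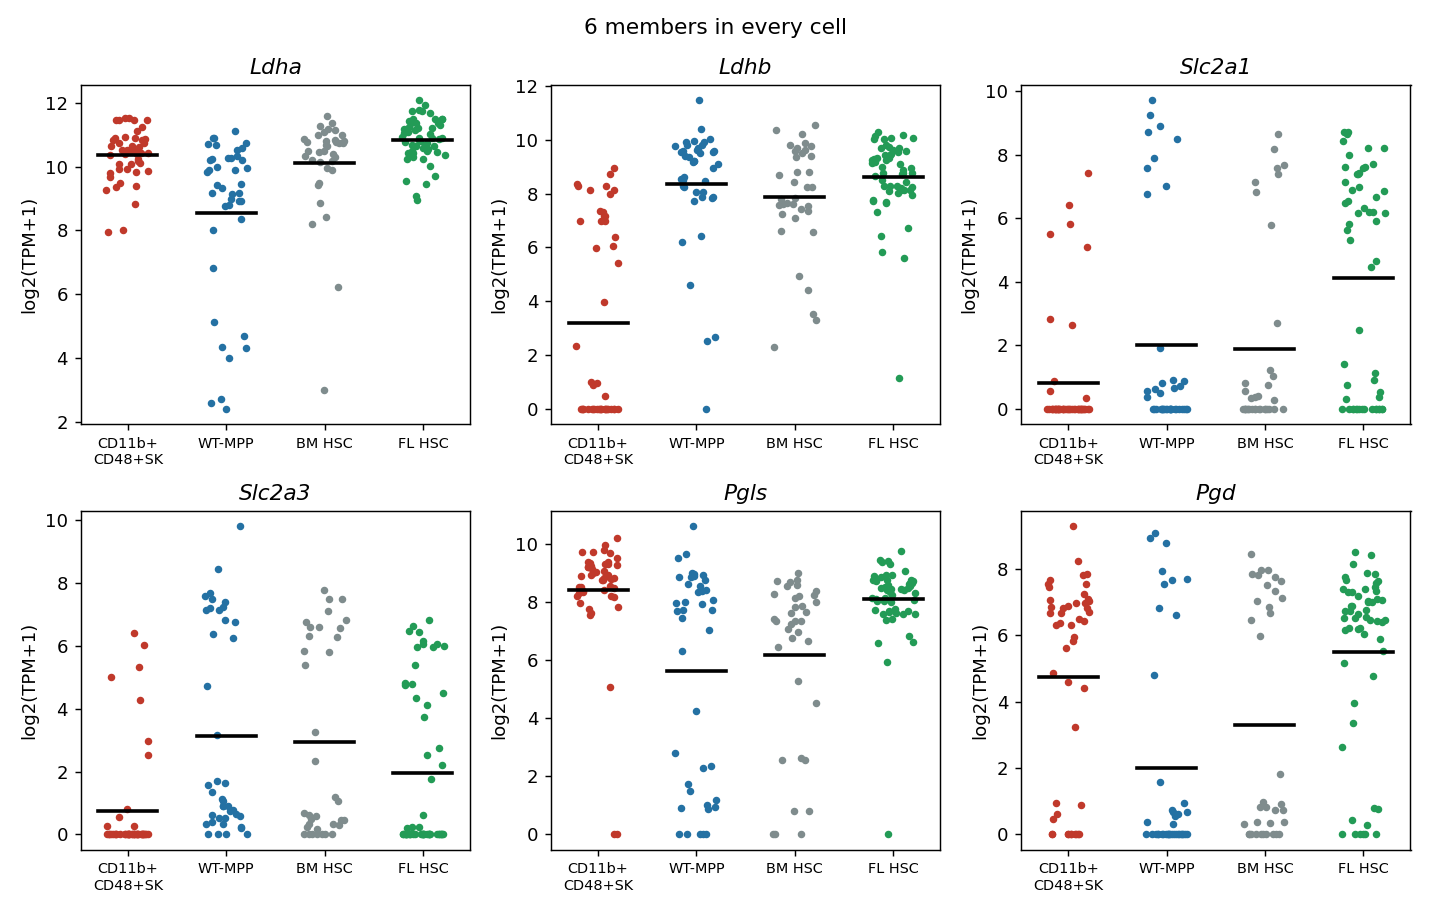
log2(TPM+1) of Ldha, Ldhb, Slc2a1, Slc2a3, Pgls and Pgd in every cell, 1 point a cell, with a line at the mean of each of the 4 populations. Ldhb is near 0 in many CD11b+CD48+SK cells and above 0 in nearly all other cells, while Ldha is high in all 47 CD11b+CD48+SK cells.

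The glucose transporter genes Slc2a1 and Slc2a3 were also low in CD11b+CD48+SK cells, with mean log2 levels of 0.80 and 0.73. Slc2a6, a transporter gene outside the member list, was as low there, at 0.73, detected in 5 of 47 cells. It was at 0 in all other cells and passed the filter only through the CD11b+CD48+SK cells. Slc2a1, which encodes GLUT1, had a median of 0 and a highest value of 172 TPM in CD11b+CD48+SK cells. It had a median of 0 and a highest value of 840 TPM in WT-MPP, and a median of 0.10 and a highest value of 406 TPM in BM HSC. In FL HSC its median was 52.5 TPM and its highest value 422 TPM, and the lowest value was 0 in every population. Slc2a1 was thus undetected in most cells outside the FL HSC and detected in most FL HSC, with overlap in every pair. It was detected in 7 of 47 CD11b+CD48+SK cells, 10 of 41 WT-MPP cells, 11 of 36 BM HSC and 35 of 56 FL HSC. Its difference was -3.31 for CD11b+CD48+SK minus FL HSC and 2.23 for FL HSC minus BM HSC, both past the fold under all 5 alternatives. The difference of -1.21 from WT-MPP fell short of the fold with a pseudocount of 10, at -0.78.

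Slc2a3, which encodes the high-affinity transporter GLUT3, was lowest in CD11b+CD48+SK cells too, with a median of 0 and a highest value of 83.9 TPM. The median was 1.16 and the highest value 901 TPM in WT-MPP, 0.85 and 217 TPM in BM HSC, and 0 and 112 TPM in FL HSC. It was detected in 7 of 47 CD11b+CD48+SK cells, 22 of 41 WT-MPP cells, 18 of 36 BM HSC and 22 of 56 FL HSC. Its difference was -2.40 from WT-MPP, between -4.15 and -1.25 under the 5 alternatives. From FL HSC it was -1.23, and -0.55 with a pseudocount of 10. Neither transporter reached a TPM of 1 in 34 of 47 CD11b+CD48+SK cells, against 14 cells in each other population. Slc2a1 held 83.9% of the mean TPM of the pair in FL HSC and between 50.4 and 61.7% in the others.

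The monocarboxylate transporter genes, whose products carry lactate and pyruvate, were sparse. Slc16a1 was detected in 14 of 47 CD11b+CD48+SK cells, 4 of 41 WT-MPP cells, 10 of 36 BM HSC and 23 of 56 FL HSC. Its mean log2 level lay between 0.74 in WT-MPP and 1.93 in FL HSC, with no difference past the fold. Slc16a3 was detected in 2, 1, 1 and 4 cells in the same order.

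Preparatory enzymes, which take glucose to triose phosphate, were a mix of high and sparse members. Aldoa, the main aldolase gene, had medians of 1108, 1236, 1285 and 1416 TPM in CD11b+CD48+SK cells, WT-MPP, BM HSC and FL HSC and no difference past the fold. Its paralog Aldoc was detected in 4 of 47 CD11b+CD48+SK cells, 13 of 41 WT-MPP cells, 18 of 36 BM HSC and 16 of 56 FL HSC, with mean log2 levels of 0.44, 2.18, 2.46 and 1.85. Aldoc held 0.60% of the aldolase pair's mean TPM in CD11b+CD48+SK cells and 5.74% in WT-MPP. Its differences of -1.74 from WT-MPP and -1.41 from FL HSC fell short of the fold under some alternatives, at -0.96 and -0.48.

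Of the hexokinase genes, whose products trap glucose in the cell, Hk1 held 89.6 to 91.6% of the mean TPM of the members Hk1 and Hk2. Hk3, a hexokinase gene outside the member list, had a higher mean TPM than Hk1 in CD11b+CD48+SK cells, at 78.7 against 39.4, and a lower one in WT-MPP, at 55.3 against 99.3. The mean log2 level of Hk1 was 3.83, 4.49, 4.15 and 3.44, and that of Hk2 was 1.51, 1.25, 2.03 and 1.34. Phosphofructokinase, the committing step, was mostly Pfkl, with 60.4% of the family's mean TPM in WT-MPP and 78.5% in FL HSC. Pfkl had mean log2 levels of 5.70, 5.20, 5.69 and 7.08, and was detected in all 56 FL HSC. Its differences were -1.39 for CD11b+CD48+SK cells from FL HSC and 1.40 for FL HSC from BM HSC, and on mean TPM they were -0.61 and 0.00. Pfkp ran the other way, at 1.81, 2.39, 3.16 and 1.56. Its difference was -1.60 for FL HSC minus BM HSC and -0.87 with a pseudocount of 10. Pfkm lay between 1.84 in WT-MPP and 2.55 in FL HSC.

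Pfkfb3, whose product makes the activator of phosphofructokinase, was detected in 25 of 47 CD11b+CD48+SK cells, 6 of 41 WT-MPP cells, 10 of 36 BM HSC and 13 of 56 FL HSC. Its difference was 1.42 from WT-MPP and 1.27 from FL HSC, and between 0.30 and 2.52 and between 0.50 and 2.24 under the alternatives. Gpi1, the isomerase gene after hexokinase, had mean log2 levels of 7.87, 6.53, 6.82 and 8.34, and Tpi1, the triose isomerase gene, had levels of 8.99, 7.60, 8.32 and 9.69. Both were higher by the fold for CD11b+CD48+SK minus WT-MPP and for FL HSC minus BM HSC, yet each of these differences was below 1 under at least 3 of the 5 alternatives.

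Payoff enzymes, which make ATP from triose phosphate, were high in all populations save for Bpgm and Eno2. Gapdh, the glyceraldehyde phosphate dehydrogenase gene, ranged from 18.8 to 315 TPM with a median of 221 TPM in CD11b+CD48+SK cells and from 39.8 to 164 TPM with a median of 91.5 TPM in FL HSC. Its range was 0 to 339 TPM with a median of 116 TPM in WT-MPP and 17.3 to 218 TPM with a median of 106 TPM in BM HSC. Most CD11b+CD48+SK cells lay above the highest FL HSC, with overlap below it. The difference from FL HSC was 1.09 and stayed between 1.02 and 1.42 under the alternatives, while that from WT-MPP was 0.88 and ended at -0.08 after another scaling of cells. Pgk1 had mean log2 levels of 6.84, 5.06, 6.03 and 7.59, and Pgam1, the phosphoglycerate mutase gene, had levels of 8.45, 6.74, 6.22 and 7.78. Both were past the fold for CD11b+CD48+SK minus WT-MPP, at 1.78 and 1.71, but among cells with a like number of genes the differences were 0.08 for Pgk1 and -0.18 for Pgam1, and that of Pgk1 was 0.02 on mean TPM.

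Eno1, the main enolase gene, had mean log2 levels of 9.37, 8.89, 9.68 and 9.78 and held over 99% of the enolase pair's mean TPM in each population. Eno2 was detected in 2 of 47 CD11b+CD48+SK cells, 1 of 41 WT-MPP cells, 1 of 36 BM HSC and 6 of 56 FL HSC. Pkm, the pyruvate kinase gene, had levels of 9.18, 8.89, 9.05 and 9.98, and neither Eno1 nor Pkm had a difference past the fold. Bpgm, whose product makes 2,3-bisphosphoglycerate, had levels of 1.66, 1.49, 2.27 and 2.91. Its difference was -1.25 for CD11b+CD48+SK minus FL HSC and -0.64 with a pseudocount of 10. Gapdh, Ldha, Pgk1, Pgam1, Aldoa, Tpi1, Eno1 and Pkm are known for processed copies elsewhere in the genome, and reads could be split among them, so their levels are uncertain. The annotation has pseudogenes named after the first 5 of them, 2 or 3 each.

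**Figure D2:**
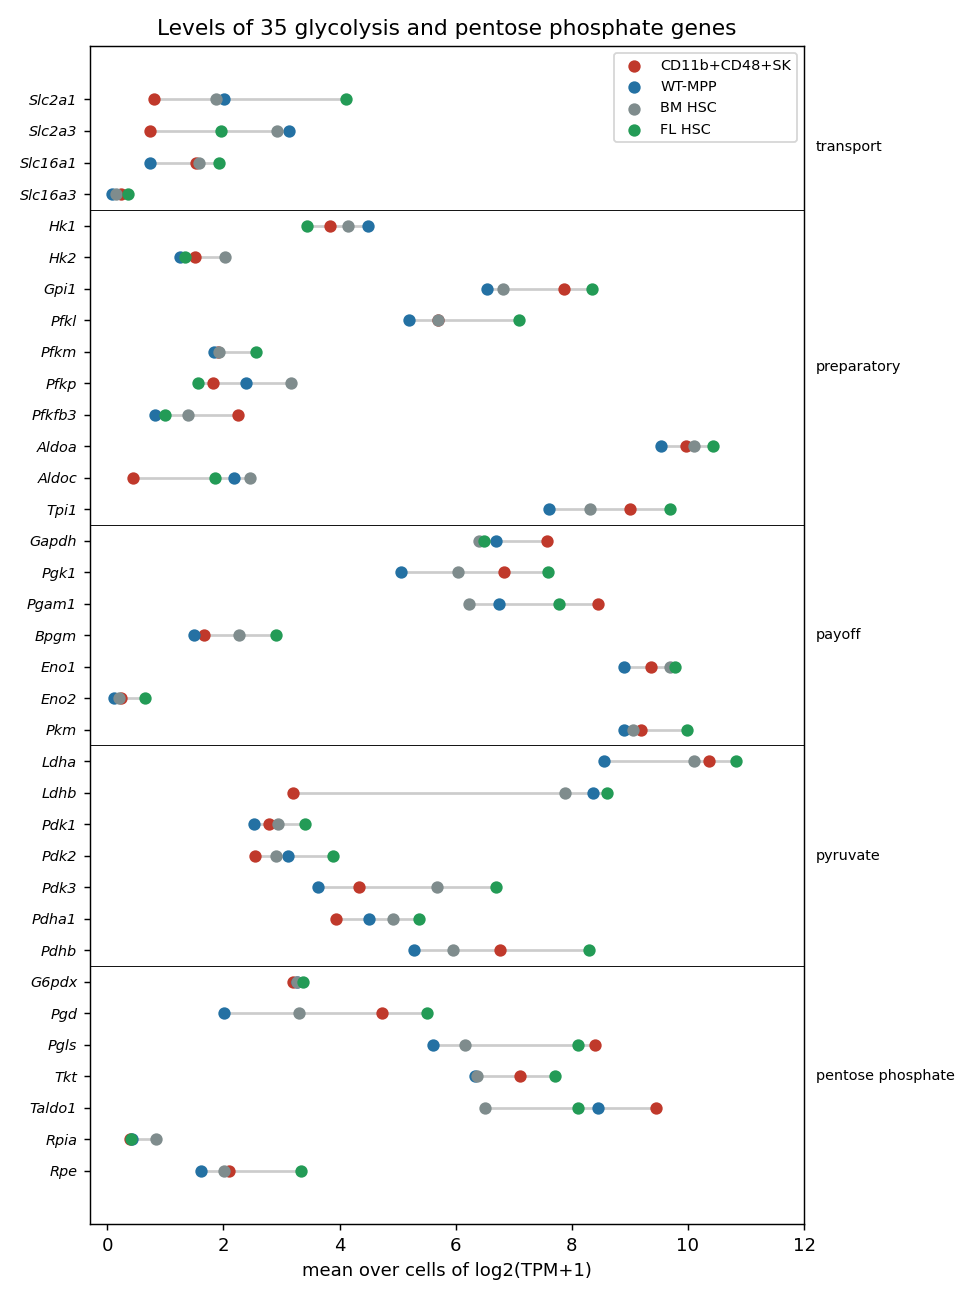
Mean over cells of log2(TPM+1) for the 35 genes in the table, by role, with 1 point for each of the 4 populations and a grey bar from the lowest to the highest. The bar of Ldhb is the longest, from 3.20 in CD11b+CD48+SK cells to 8.61 in FL HSC.

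Genes that act on pyruvate are the lactate dehydrogenase pair, the pyruvate dehydrogenase subunits and the kinases of that enzyme. All 7 had a lower mean in CD11b+CD48+SK cells than in FL HSC, 5 of them by the fold, where 20.9% of all kept genes were lower by the fold and 30.9% were above 0. Among the 7 Pdk1 alone turned sign, to 0.27 among cells with a like number of genes. Pdk3, a kinase gene whose product switches pyruvate dehydrogenase off, ranged from 0 to 336 TPM with a median of 47.6 TPM in CD11b+CD48+SK cells, and from 0 to 701 TPM with a median of 2.48 TPM in WT-MPP. Its medians were 209 TPM in BM HSC, with a highest value of 526 TPM, and 129 TPM in FL HSC, with a highest value of 535 TPM. All ranges overlapped, and the HSC populations had the higher medians. The difference for Pdk3 was -2.36 for CD11b+CD48+SK minus FL HSC, between -3.12 and -1.03 under the alternatives, and -2.04 for WT-MPP minus BM HSC, ending at -0.78 on mean TPM. Pdk3 held the largest share of the kinase family's mean TPM in each population, 59.6, 43.3, 68.4 and 63.6%.

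Pdk2 had mean log2 levels of 2.54, 3.12, 2.90 and 3.88, and Pdk1, a hypoxia-responsive kinase gene, had levels of 2.78, 2.53, 2.94 and 3.41. The dehydrogenase subunit genes Pdha1 and Pdhb had their highest mean log2 levels in FL HSC. Pdhb had levels of 6.76, 5.28, 5.95 and 8.30, with differences of 2.35 for FL HSC minus BM HSC and -1.54 for CD11b+CD48+SK minus FL HSC. On mean TPM these were 0.63 and -0.64. The difference of Pdhb of 1.49 for CD11b+CD48+SK minus WT-MPP turned to -0.25 among cells with a like number of genes. Pdha1 had levels of 3.93, 4.51, 4.92 and 5.36. Its difference was -1.43 for CD11b+CD48+SK minus FL HSC and -0.54 among cells with a like number of genes.

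The pentose phosphate genes did not all follow 1 order. G6pdx, the gene of the entry enzyme, had means of 3.20, 3.27, 3.28 and 3.37 on the log2 scale. Pgls, the gene of the lactonase that follows, ranged from 0 to 1167 TPM with a median of 456 TPM in CD11b+CD48+SK cells, and from 0 to 1556 TPM with a median of 209 TPM in WT-MPP. In BM HSC its median was 161 and its highest value 509 TPM, and in FL HSC they were 338 and 850 TPM. The difference for Pgls was 2.79 for CD11b+CD48+SK minus WT-MPP, where many WT-MPP cells were near 0, and it was 0.93 on mean TPM. Pgd, whose product makes the second NADPH of the pathway, was detected in 33 of 47 CD11b+CD48+SK cells, 11 of 41 WT-MPP cells, 16 of 36 BM HSC and 46 of 56 FL HSC. Its medians were 81.5 TPM, 0, 0.82 TPM and 92.5 TPM, and its highest values 625, 536, 352 and 362 TPM. The difference for Pgd was 2.73 for CD11b+CD48+SK minus WT-MPP and 2.21 for FL HSC minus BM HSC, and fell to 0.57 and 0.48 on mean TPM.

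Taldo1, in the non-oxidative arm, was lowest in BM HSC and highest in CD11b+CD48+SK cells. It ranged from 310 to 1406 TPM with a median of 732 TPM in CD11b+CD48+SK cells and from 1.14 to 2229 TPM with a median of 602 TPM in WT-MPP. The range was 0 to 849 TPM with a median of 204 TPM in BM HSC and 2.98 to 888 TPM with a median of 337 TPM in FL HSC. Means were 735 ± 224, 600 ± 431, 262 ± 241 and 343 ± 178 TPM (SD over 47, 41, 36 and 56 cells). No CD11b+CD48+SK cell was below 310 TPM, and the ranges of all populations overlapped. Its difference was 1.35 for CD11b+CD48+SK minus FL HSC, between 1.10 and 1.60 under the alternatives, and 1.96 for WT-MPP minus BM HSC, between 1.20 and 2.56. From WT-MPP it was 1.002 and turned to -0.06 after another scaling of cells.

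Tkt, the transketolase gene, had mean log2 levels of 7.10, 6.34, 6.37 and 7.72. Its difference was 1.35 for FL HSC minus BM HSC and fell to 0.21 on mean TPM. Rpe, the epimerase gene, was at 2.097, 1.61, 2.01 and 3.34, and Rpia, the ribose phosphate isomerase gene, was detected in 5 of 47, 3 of 41, 7 of 36 and 9 of 56 cells.

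Summed over the 7 pentose phosphate genes, CD11b+CD48+SK cells had the highest median, 1609 TPM per cell, with a range from 812 to 2525 TPM. The medians of WT-MPP, BM HSC and FL HSC were 1209, 820 and 1116 TPM, and the lowest cells of WT-MPP and BM HSC were at 2.67 and 0.63 TPM. Means were 1611 ± 376, 1259 ± 653, 840 ± 469 and 1121 ± 345 TPM. After another scaling of cells the medians were 1214, 1184, 729 and 774 TPM. The 18 glycolytic enzyme genes summed to medians of 6448, 6302, 6881 and 8071 TPM per cell, so FL HSC had the highest and the others lay close together. Their means were 6300 ± 1573, 6112 ± 2075, 6683 ± 1941 and 8289 ± 2019 TPM. Ldha was the largest part of that mean in CD11b+CD48+SK cells (23.8%), BM HSC (21.9%) and FL HSC (24.2%), and Aldoa in WT-MPP (22.4%). After the other scaling of cells that order was lost, the glycolytic medians being 4998, 6209, 5553 and 5437 TPM. Without the 8 genes with processed copies named above the medians were 637, 1346, 1147 and 1210 TPM, lowest in CD11b+CD48+SK cells and highest in WT-MPP. Ldhb stays in that sum, with means of 84.0, 588, 437 and 522 TPM. It is the largest gene left in WT-MPP, BM HSC and FL HSC, and its means ran in the same order. Of the other genes left, Aldoc was likewise lowest in CD11b+CD48+SK cells and highest in WT-MPP, with means of 7.15 and 83.3 TPM. Gpi1 was highest in FL HSC, at 374 TPM, and lowest in BM HSC, at 260 TPM. What part of the order comes from Ldhb was not tested.

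**Figure D3:**
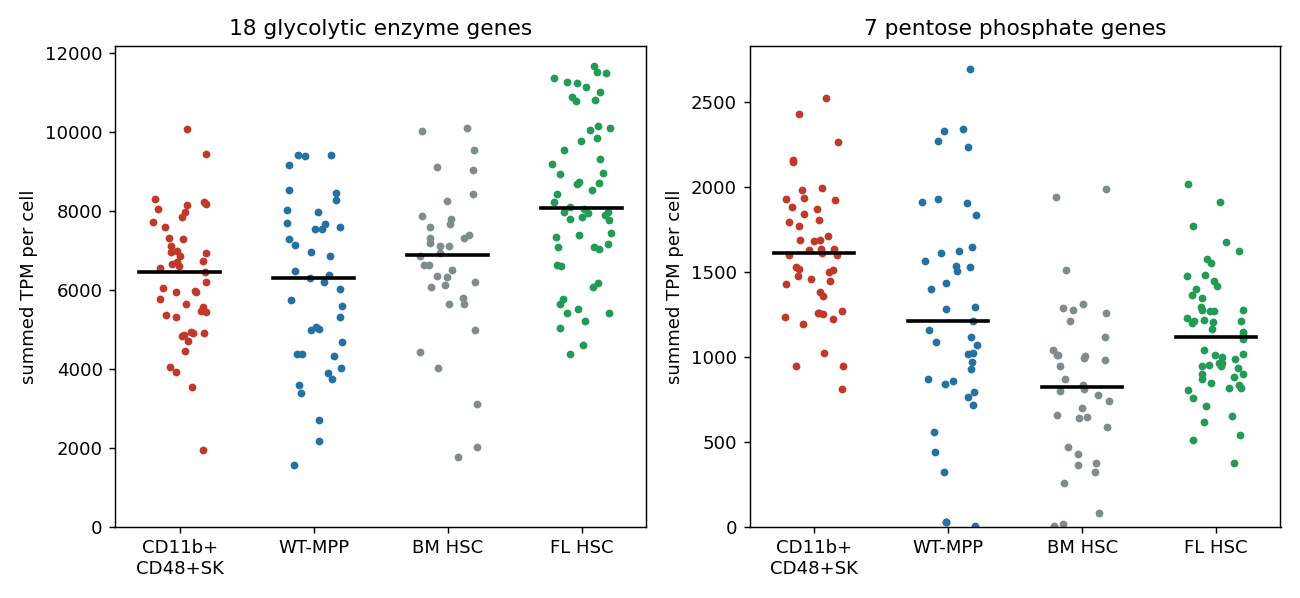
Summed TPM per cell over the 18 glycolytic enzyme genes and over the 7 pentose phosphate genes, 1 point a cell, with a line at the median of each of the 4 populations. The glycolytic median is highest in FL HSC, at 8071 TPM, and the pentose phosphate median in CD11b+CD48+SK cells, at 1609 TPM.

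Over all 34 members that passed the filter, the differences followed those of all genes in sign. For CD11b+CD48+SK minus WT-MPP, 10 members were higher by the fold, where 19% of all kept genes were, and 4 were lower, where 5.01% were. The median over the members was 0.45 and that over all kept genes 0.21. This direction did not hold: the members' median was -0.22 on mean TPM, -0.14 after another scaling of cells and -0.16 among cells with a like number of genes, where the median of all genes was -0.32, -0.07 and -0.07. The members higher by the fold fell to 1, 3 and 3 and those lower rose to 10, 8 and 9 under these alternatives. All kept genes moved the same way, with 10.3, 9.79 and 10.98% higher and 24.1, 12.24 and 15.8% lower. No member higher than in WT-MPP kept the fold under all 5 alternatives, and of the 4 lower members Ldhb and Slc2a3 did.

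For CD11b+CD48+SK minus FL HSC, 3 members were higher by the fold (4.02% of all kept genes were) and 11 were lower (20.9%). The median was -0.62 over the members and -0.32 over all genes. Gapdh and Taldo1, both higher, and Slc2a1, Ldhb and Pdk3, all lower, kept the fold under all 5 alternatives. For FL HSC minus BM HSC, 13 members were higher by the fold (25.6% of all kept genes) and 1 was lower (5.44%), with medians of 0.68 and 0.31. This balance did not hold either, with 1 higher and 7 lower on mean TPM, where 11.8 and 19.3% of all genes were, and 5 higher and 4 lower after another scaling of cells. Slc2a1 alone kept the fold throughout. The members' median was 0.18 on mean TPM and 0.16 after that scaling, where the median of all genes was -0.13 and 0.05. For WT-MPP minus BM HSC, 1 member was higher (2.67%) and 3 were lower (14.49%), with medians of -0.41 and -0.22, and the members' median was 0.10 on mean TPM and 0.17 among cells with a like number of genes. Taldo1 was the higher member and kept the fold throughout. These comparisons share populations, so their values are not separate evidence.

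**Figure D4:**
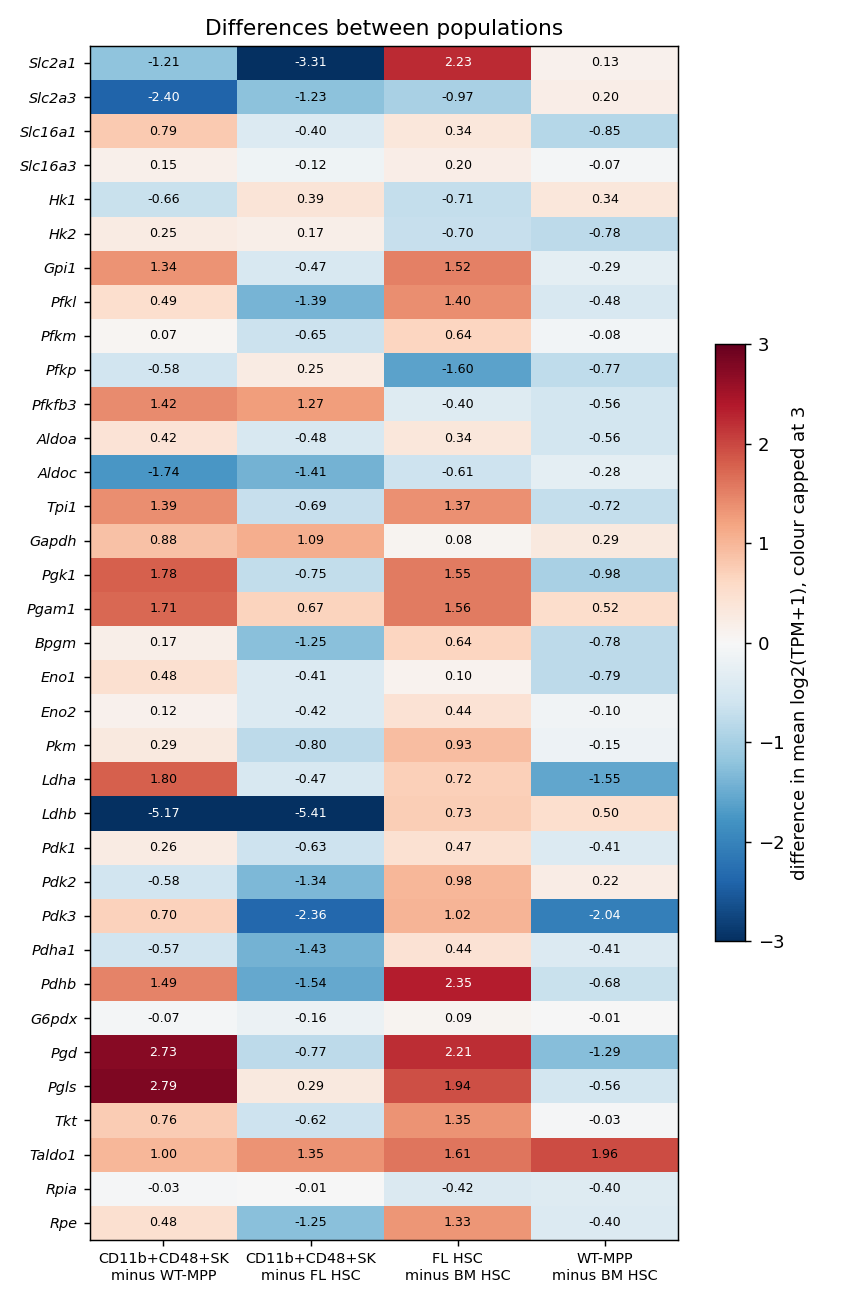
Difference in mean log2(TPM+1) for the 35 genes in the table in 4 comparisons, printed in each square, with red for higher and blue for lower in the population named first and colour ending at 3. Ldhb lies past the end of the blue scale in both comparisons of CD11b+CD48+SK cells, at -5.17 and -5.41. Slc2a1, at -3.31, has the same blue in the comparison with FL HSC.

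FL HSC had the highest mean log2 level of the 4 populations for 23 of the 34 members (67.6%), and for 48.6% of all kept genes. Among those members, Eno2 passed the filter only through the FL HSC, where it was detected in 10.7% of cells. WT-MPP had the lowest for 21 members (61.8%), and for 41.02% of all kept genes. These orders changed on mean TPM. There WT-MPP was highest for Slc2a3, Hk1, Hk2, Pfkm, Aldoc, Ldhb, Pdk1, Pdk2, Pdha1 and G6pdx. Of these Pfkm, Ldhb, Pdk1, Pdk2, Pdha1 and G6pdx had been highest in FL HSC by mean log2 level. WT-MPP stayed lowest on mean TPM for Ldha, Tpi1 and Pgd, among others. CD11b+CD48+SK cells were highest for Pfkfb3, Gapdh, Pgam1, Pgls and Taldo1, and lowest for Slc2a1, Slc2a3, Aldoc, Ldhb, Pdk2, Pdha1, G6pdx and Rpia. FL HSC also had the most genes detected per cell and WT-MPP the fewest.

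Among cells of 1 population, the mean log2(TPM+1) of the 34 members moved with the number of genes detected. Spearman's rho over cells was 0.77, 0.60, 0.72 and 0.24 for CD11b+CD48+SK, WT-MPP, BM HSC and FL HSC. With the mean of the cell cycle genes rho was 0.58, 0.44, 0.53 and -0.23 in the same order, and the cell cycle mean itself had a rho of 0.77, 0.57, 0.52 and 0.57 with the number of genes. These values describe cells prepared by the same protocol and tied to no animal, and have no p. The member mean spread most in BM HSC, from 1.41 to 6.11 with an SD of 1.05, and least in FL HSC, from 4.20 to 6.28 with an SD of 0.49.

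**Figure D5:**
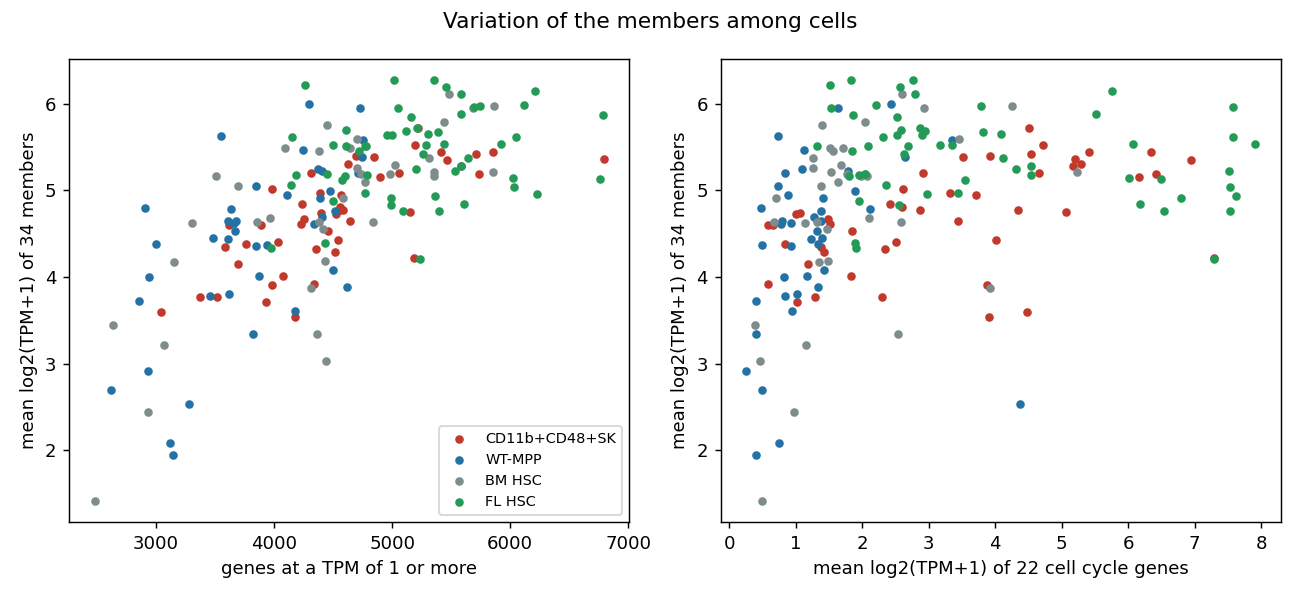
Mean log2(TPM+1) of the 34 members in each cell against the number of genes detected (TPM of 1 or more) and against the mean log2(TPM+1) of 22 cell cycle genes, 1 point a cell, coloured by population. In the CD11b+CD48+SK, WT-MPP and BM HSC populations the members' mean is higher in cells with more genes, with a rho from 0.60 to 0.77, and in FL HSC rho is 0.24.

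Of 41 other genes of these pathways, 26 passed the filter. In CD11b+CD48+SK cells 7 (26.9%) were higher than in WT-MPP by the fold, where 19% of all kept genes were, and 1 was lower (5.01% of all). Against FL HSC 1 was higher (4.02% of all) and 4, or 15.4%, were lower (20.9% of all). For FL HSC minus BM HSC 7 were higher (25.6% of all) and 1 was lower (5.44%), and for WT-MPP minus BM HSC 2 were higher (2.67%) and 3 lower (14.49%). Most of these shares lay near those of all genes. Hk3, a hexokinase gene of myeloid cells, had mean log2 levels of 4.09, 2.52, 0.60 and 0.35 and was detected in 30 of 47 CD11b+CD48+SK cells, 17 of 41 WT-MPP cells, 5 of 36 BM HSC and 4 of 56 FL HSC. Its differences of 3.75 for CD11b+CD48+SK minus FL HSC and 1.93 for WT-MPP minus BM HSC kept the fold under all 5 alternatives. Dera, whose product breaks down deoxyribose phosphate, had levels of 3.70, 2.37, 2.04 and 7.05 and was detected in 53 of 56 FL HSC and 13 of 36 BM HSC. The difference for Dera was 5.02 for FL HSC minus BM HSC and -3.35 for CD11b+CD48+SK minus FL HSC, past the fold throughout. Rbks, the ribokinase gene, was at 2.19, 0.20, 1.31 and 1.58, and its difference of 1.99 for CD11b+CD48+SK minus WT-MPP kept the fold, at 1.02 or more.

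The others past the fold did not keep it under every alternative. Pgp, the phosphoglycolate phosphatase gene, had a difference of 2.41 for CD11b+CD48+SK minus WT-MPP and of 2.71 for FL HSC minus BM HSC. Pgm1 and Pgm2, phosphoglucomutase genes, had differences of 1.68 from WT-MPP and -1.58 from FL HSC in CD11b+CD48+SK cells, and Pgm2 was higher by 2.18 in FL HSC than in BM HSC. Adpgk, whose product phosphorylates glucose with ADP, was higher by 1.53 in that comparison with WT-MPP, and Fbp1, a gluconeogenic phosphatase gene, was lower, at -1.66. The pyruvate carrier gene Mpc1 had a difference of 1.06 from WT-MPP, which turned to -0.04 on mean TPM, and Mpc2 had one of 1.04 for FL HSC minus BM HSC, which turned to -0.22. Pdhx, a subunit gene of the dehydrogenase complex, and Slc2a8, a transporter gene, were higher in FL HSC than in BM HSC by 1.64 and 1.47, while Pdp2, a phosphatase gene of that complex, had -1.28. Prps1, which makes the ribose donor for nucleotides, had a difference of -1.36 for WT-MPP minus BM HSC.

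Of 15 transcription factors and regulators of glycolysis, 14 passed the filter, and the Myc genes differed most. Myc, a driver of growth and of glycolytic genes, had medians of 600, 343, 264 and 34.6 TPM. Mycn, its paralog, had medians of 0.24 TPM, 13.6 TPM, 252 TPM and 326 TPM in the same order. The pair thus ran in opposite orders, Myc being detected in 47 of 47, 41 of 41, 35 of 36 and 30 of 56 cells and Mycn in 16, 34, 35 and 54. For CD11b+CD48+SK minus FL HSC the difference was 4.86 for Myc and -5.44 for Mycn, and for FL HSC minus BM HSC it was -2.85 for Myc. The difference for Mycn for CD11b+CD48+SK minus WT-MPP was -2.62, and all these kept the fold under the 5 alternatives.

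In CD11b+CD48+SK cells 5 of the 14 were lower than in WT-MPP by the fold, where 5.01% of all kept genes were, and 2 were higher (19% of all). Against FL HSC 8 were lower (20.9% of all) and 1 was higher (4.02%). For FL HSC minus BM HSC 4 were higher (25.6%) and 2 lower (5.44%), and for WT-MPP minus BM HSC 0 were higher (2.67%) and 2 lower (14.49%). Hif1a, the oxygen-regulated subunit gene, had mean log2 levels of 0.41, 1.45, 1.35 and 2.24 and differences of -1.04 and -1.83 from WT-MPP and FL HSC. Vhl, whose product marks HIF subunits for decay, had levels of 0.72, 2.27, 2.20 and 2.44, and Egln2, a HIF prolyl hydroxylase gene, had levels of 3.10, 4.27, 4.70 and 5.10. Arnt, the partner of Hif1a, was at 0.69, 1.79, 1.42 and 1.18. Usf1, an E-box binding factor gene, was at 3.08, 2.12, 2.35 and 5.33, and Mlx and Mlxip, which sense sugar phosphates as a pair, were at 3.08, 2.04, 2.19 and 4.35 and at 2.18, 1.27, 3.94 and 2.48. Mlxip kept its difference of -2.68 for WT-MPP minus BM HSC throughout, while no other regulator outside the Myc pair kept the fold under all 5 alternatives. Max, the partner of Myc, was at 3.33, 3.73, 4.23 and 5.07, Hif3a at 0, 0.52, 0.20 and 1.35, and Egln3 at 1.20, 0.59, 0.33 and 1.38.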

How the data were processed

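Single sorted cells were amplified and sequenced, 1 library a cell, and the labels gave the population of 180 cells. In the table the authors deposited, each value is a TPM, estimated with StringTie 1.3.4 after alignment with HISAT2 2.1.0 to mm10, as the submitters' processing notes name tools and build. The annotation is not given in the sources used here. Each cell sums to 1000000 TPM over the listed genes. Of 181 cell columns, 1 matches no labelled sample and was left out.

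Values were transformed to log2(TPM+1) with a pseudocount of 1 and averaged over cells with pandas 2.3.3, numpy 2.4.6 and scipy 1.17.1 under Python 3.11.15, and plotted with matplotlib 3.10.9. The arithmetic was checked on copies of the WT-MPP cells in which chosen genes were raised or lowered by a known factor. The copies held no difference in depth or noise between populations, so that check says nothing on these. Members and lists were chosen with earlier results of these data known. Genes named are all members, and other pathway genes and regulators with a difference of 1 or more in size, apart from 1 gene not reported here. Gene positions are from GENCODE M21, in which 35 of 36 members matched.

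Alternatives were a pseudocount of 0.1 or 10, no filter, log2 of mean TPM, cells scaled by a median ratio, cells with 3974 to 4751 genes at a TPM of 1 or more (24, 17, 14 and 14 cells), and leaving out 8 members known for processed pseudogenes, of which 5 have pseudogenes that carry their name in the annotation. The 5 alternatives named beside genes are those on the pseudocount, the averaging, the scaling and the cells. The authors' tests over cells were not repeated. Flow cytometry and transplantation data were not analysed here.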

Additional observations from a re-analysis of the deposited data

How the results depend on the processing

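With 1 sample a population, nothing here covers spread between animals. Counts of members past the fold (higher, lower) follow, with the shares of all kept genes in brackets. For CD11b+CD48+SK minus WT-MPP they were 6 and 2 (6.95 and 1.58%) with a pseudocount of 10. On mean TPM they were 1 and 10 (10.3 and 24.1%), and after median-ratio scaling 3 and 8 (9.79 and 12.24%). Among cells in the shared range of genes they were 3 and 9 (10.98 and 15.8%). Without members with pseudogenes 6 were higher (19%). For CD11b+CD48+SK minus FL HSC, 4 were lower (7.12%) with a pseudocount of 10 and 6 were lower (19.5%) on mean TPM. In the shared range 6 were higher (11.02%) in that comparison. For FL HSC minus BM HSC, 4 were lower (11.9%) with a pseudocount of 0.1. With a pseudocount of 10 the counts were 8 and 0 (9.61 and 1.81%), and on mean TPM 1 and 7 (11.8 and 19.3%). After scaling they were 5 and 4 (15.4 and 10.05%), and 3 were lower (15.7%) in the shared range. For WT-MPP minus BM HSC, 7 were lower (25.7%) with a pseudocount of 0.1 and 1 was lower (15.6%) on mean TPM. In the shared range 8 were higher (15.1%) and 5 lower (13.3%). The cause was not tested.

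The median over members for CD11b+CD48+SK minus WT-MPP turned to -0.22 on mean TPM, -0.14 after scaling and -0.16 in the shared range. For WT-MPP minus BM HSC it turned to 0.10 and 0.17 on mean TPM and in the shared range, and for FL HSC minus BM HSC it was 0.16 after scaling. Single genes turned sign in CD11b+CD48+SK minus WT-MPP in the shared range (Pgam1 -0.18, Pdhb -0.25, Hk3 -0.99, Mpc1 -0.68, Myc -0.65), on mean TPM (Mpc1 -0.044) and after scaling (Taldo1 -0.055). The same held for Pgm2 in CD11b+CD48+SK minus FL HSC in the shared range (0.19) and for Pdk3 (-0.20) and Mpc2 (-0.22) in FL HSC minus BM HSC on mean TPM. After scaling, the percent of all genes higher and lower by the fold moved from 19 and 5.01 to 9.79 and 12.24 for CD11b+CD48+SK minus WT-MPP.

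Without members with pseudogenes the glycolytic sum, median over cells, was 637 TPM for CD11b+CD48+SK, 1346 TPM for WT-MPP, 1147 TPM for BM HSC and 1210 TPM for FL HSC. Ldhb, lowest in CD11b+CD48+SK cells, is a large part of what is left in the other populations. After scaling the glycolytic sum of FL HSC was 5437 TPM and the pentose phosphate sum of CD11b+CD48+SK was 1214 TPM. Dropping the filter changed no count beyond 1.5 times. No paired analysis was possible because the replicate numbers only name cells. TPM keeps no read counts, so what depth hides in a cell at 0 is unknown.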

Other observations

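The genes nearest to Ldhb on either side of chromosome 6 among those that passed the filter were looked at after its values were seen, and other genes lie between. Golt1b, a Golgi transport gene at chr6:142387211-142413835, had mean log2 levels of 2.31 in FL HSC, 1.93 in BM HSC, 0.76 in WT-MPP and 3.01 in CD11b+CD48+SK cells. Cmas, a sialic acid activating enzyme gene at chr6:142756686-142775714, had levels of 8.54, 7.67, 6.69 and 6.35. Against WT-MPP, CD11b+CD48+SK cells thus differed by 2.26 for Golt1b and -0.34 for Cmas, beside -5.17 for Ldhb between them.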
